A study of Homo sapiens with 8 samples.

Results

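The genes of glucose transport, glycolysis, gluconeogenesis and glycogen were compared between HepG2 cells primed on flat culture plastic and HepG2 cells primed on a 3D scaffold. The set was a list of 51 gene symbols covering glucose carriers, glycolytic enzymes, lactate handling, the pyruvate dehydrogenase kinases, gluconeogenesis and glycogen metabolism. All 51 were found among the 38032 gene identifiers of the tables, and 48 had 10 or more counts in at least 2 of the 8 libraries, the filter that 13943 genes passed in all. LDHB, PDK4 and GYS2 did not pass it.

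HepG2 is a human hepatocellular carcinoma cell line, used here as wild type, that keeps part of the secretory and metabolic programme of hepatocytes. Poly(A) RNA was sequenced from 4 libraries of 2D-primed cells and 4 libraries of 3D-primed cells. The 2D-primed cells were kept for 8 days on tissue culture plastic, and the 3D-primed cells for 8 days on Alvetex Strata, an inert porous polystyrene scaffold on which cells build up in layers. Both groups were grown in minimal essential medium with glutamine and foetal bovine serum and were released with trypsin before RNA extraction. The glucose concentration of the medium is not given in the sources used here. The scaffold cultures were seeded with more cells per well, so the substrate and the seeding number cannot be told apart. The labels number the replicates but do not say that they are separate cultures, so each p-value measures the spread between these libraries, which may be technical. Everything below concerns transcripts of 1 cell line.

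Glucose enters cells through facilitative carriers of the SLC2A family, is trapped by hexokinases, and is split by glycolysis to pyruvate. Pyruvate is either reduced to lactate and exported or oxidised in mitochondria through pyruvate dehydrogenase. Liver can also run the path in reverse, making glucose from lactate and amino acids and releasing it through glucose-6-phosphatase, and it stores glucose as glycogen. Most steps are carried out by several isozymes, some typical of hepatocytes (SLC2A2, PKLR, PCK1, G6PC1, GYS2, PYGL) and some found in most or in other cells (SLC2A1, HK1, PKM, GYS1, PYGB), and many of the ubiquitous forms are known targets of the hypoxia-inducible factors (HIF).

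The libraries held between 21599630 and 27844077 counts, so 3 counts, taken as the limit of detection for counting error alone, corresponded to 0.107 to 0.137 CPM. Values below are counts-per-million after TMM scaling (CPM), listed for replicates 1 to 4 of each group, and fold changes are 3D-primed over 2D-primed from edgeR's quasi-likelihood test, with Benjamini-Hochberg adjusted p over the 13943 genes. Each standard error (SE) was derived from that test, as the absolute log2 fold change over the square root of its F statistic. A gene was called at an adjusted p under 0.05. Hepatocyte markers summed to 73982 to 80377 CPM in the 2D-primed libraries and 108860 to 120880 CPM in the 3D-primed libraries. Of the 16, 12 rose, 3 fell and 1 was not called, against 32.4% of all genes that rose and 31.6% that fell. The 7 endothelial markers summed to at most 7.76 CPM and the 8 fibroblast markers to at most 48.7 CPM in any library, with CLEC4G, STAB2 and THY1 at 0. The blood and macrophage list summed to 2194 to 2286 CPM in 2D and 2421 to 3027 CPM in 3D, mostly LYZ, with CD163 and MARCO at 0. In each of these 3 lists 3 markers could be tested. Of the endothelial markers 1 rose and 1 fell, of the fibroblast markers 1 rose and 1 fell, and of the blood markers 2 rose and 1 fell. In the fibroblast list 1 marker passed the filter through 1 group only.

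Most of the genes of glucose use were lower in the 3D-primed cells. Of the 48 members tested, 33 fell (68.8%), 9 rose (18.8%) and 6 were not called. PPP1R3B, counted as lower, and FBP1, counted as higher, passed the filter only through the group in which they were higher, and with 10 counts required in all 8 libraries 32 members fell and 8 rose. Over all genes tested, 31.6% fell, 32.4% rose and 63.9% were called in either direction, so the share of members that fell lay above the background and the share that rose lay below it. At least 2-fold lower were 18 members (37.5%, against 7.01% of all genes), PPP1R3B among them. At least 2-fold higher were 2 members (4.17%, against 4.86%), PCK2 and FBP1. The median log2 fold change was -0.62 over the 48 members and 0.01 over all genes tested. The libraries of the groups did not overlap in 40 members (83.3%), against 59.8% of all genes. In 31 members (64.6%) every 3D-primed library lay below every 2D-primed library, against 29.5% of all genes. In 9 (18.8%), FBP1 among them, every 3D-primed library lay above, against 30.2%. The shares over all genes also hold genes that passed the filter through 1 group only, 437 of the 13943 tested. Over 17 alternative settings, 40 to 42 members were called.

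The steps of glycolysis from glucose phosphate isomerase to pyruvate kinase carried the bulk of these transcripts. The 51 members together took 3.13%, 3.30%, 3.45% and 3.28% of all counts in the 2D-primed libraries and 1.57%, 1.55%, 1.72% and 1.30% in the 3D-primed libraries, without overlap. The 15 enzymes of that stretch alone took 2.23% ± 0.0833 (SD, n = 4) of all counts in 2D and 1.02% ± 0.129 (SD, n = 4) in 3D. Of these 15, 13 fell (31.6% of all genes did), PFKM rose and ALDOC was not called, with a median log2 fold change of -1.15. In bulk libraries, fewer cells of a kind and less RNA per cell cannot be told apart.

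**Figure D1:**
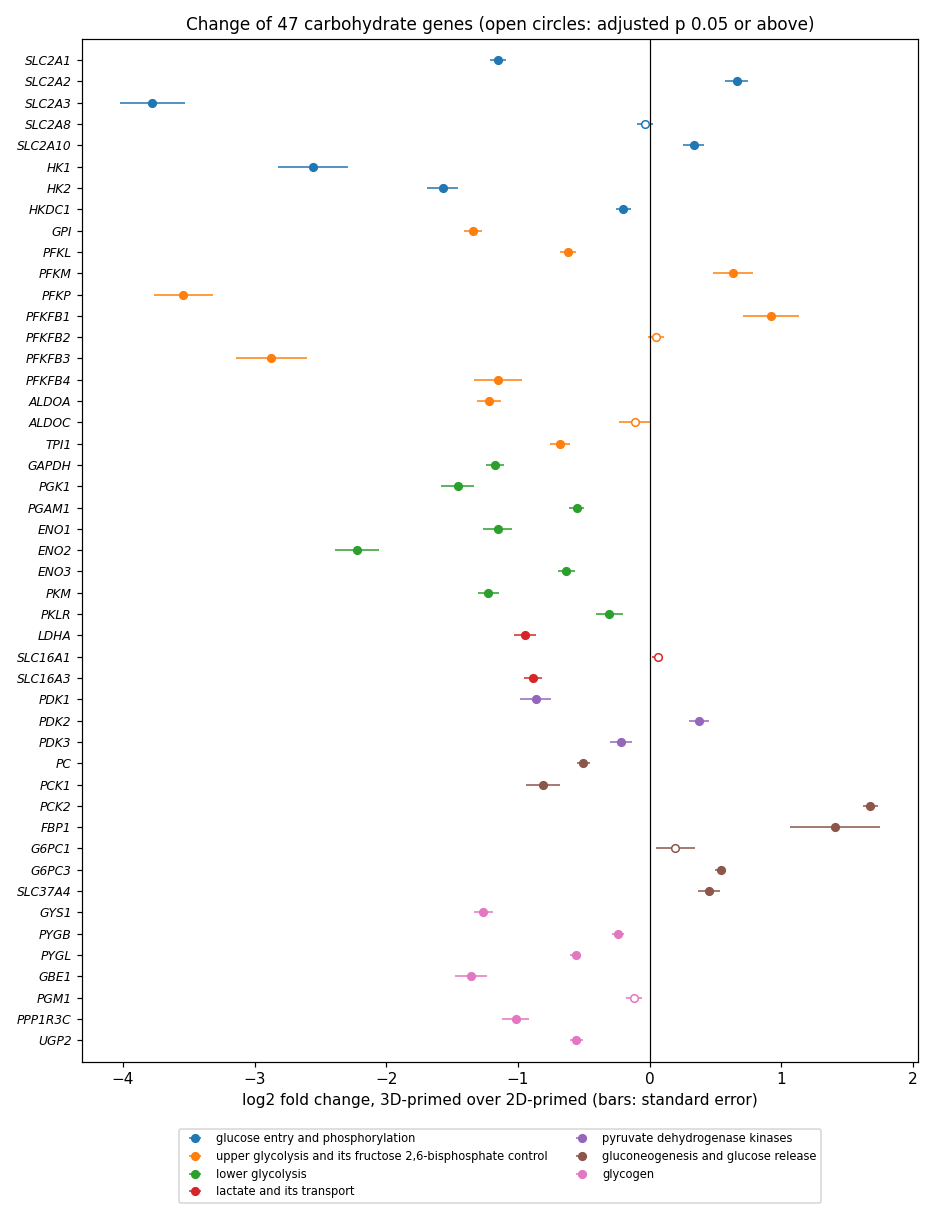
Log2 fold change (3D-primed over 2D-primed, edgeR) of 47 members by step of the pathway (PPP1R3B is left out), with bars of 1 standard error, and open circles for members not called. Lower glycolysis lies entirely to the left of 0, and the points furthest to the right are PCK2 at 1.68 and FBP1 at 1.41.

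The 3D-primed libraries also differed among themselves. Of the 33 members that fell, 26 (78.8%) had their lowest 3D value in replicate 4, and 22 (66.7%) had their highest 3D value in replicate 3. Over all 4401 genes that fell, replicate 4 was the lowest 3D library for 29.1% and replicate 3 the highest for 45.5%. Without 3D-primed replicate 4, 41 members were called, 31 lower and 10 higher. The cause of the lower values of replicate 4 was not tested.

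Among the glucose carriers, the main change was in SLC2A3 (GLUT3, ENSG00000059804, GRCh38 chr12:7919230-8019007, minus strand), a high-affinity carrier best known from neurons and tumour cells. SLC2A3 measured 1796, 2173, 2362 and 2076 CPM in 2D and 143, 159, 224 and 87.1 CPM in 3D. The highest 3D library was far below the lowest 2D library, and replicate 4 held the least. The mean was 2102 ± 236 CPM in 2D and 153 ± 56.3 CPM in 3D (SD, n = 4), 13.7-fold higher in 2D (log2 fold change -3.78, SE 0.245, adjusted p = 5.73e-07). Its near-identical neighbour SLC2A14, whose reads can be shared with it, held, together with 3 other named copies, 1.48% of the CPM of SLC2A3 in 2D and 8.65% in 3D.

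SLC2A1 (GLUT1, ENSG00000117394, chr1:42925353-42958893, minus strand) is the ubiquitous basal carrier. It measured 1306, 1518, 1581 and 1459 CPM in 2D and 637, 671, 696 and 639 CPM in 3D. The groups did not overlap and the 3D libraries lay close together. The fall was 2.22-fold (log2 fold change -1.15, SE 0.060, adjusted p = 1.56e-07).

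SLC2A2 (GLUT2), the low-affinity carrier of hepatocytes and beta cells, moved the other way from a low level. It measured 20.8, 21.3, 20.5 and 20.1 CPM in 2D and 38.5, 31.8, 33.1 and 27.6 CPM in 3D. Every 3D library was above every 2D library, and the rise was 1.58-fold (log2 fold change 0.66, SE 0.088, adjusted p = 8.26e-05). SLC2A10 rose from 27.8 to 33.8 CPM in 2D to 35.7 to 43.99 CPM in 3D (log2 fold change 0.33, adjusted p = 0.00378). SLC2A8 was not called, at 28.3 to 33.4 CPM in 2D and 28.6 to 32.2 CPM in 3D.

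Per kilobase of transcript, the order of the carriers changed. SLC2A3 held 54.3% ± 0.965 of the summed CPM per kilobase of the 5 carriers in 2D and 14.7% ± 4.24 in 3D (SD, n = 4). SLC2A1 held 42.9% ± 0.692 in 2D and 72.8% ± 3.42 in 3D. SLC2A2 went from 0.649% to 3.84% and so stayed a minor carrier by transcript level in both groups.

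All 3 hexokinases measured fell, by different amounts. Hexokinases phosphorylate glucose and so keep it in the cell. HK2, the form induced in many tumours, measured 655, 831, 831 and 805 CPM in 2D and 234, 263, 326 and 228 CPM in 3D. The groups did not overlap, and HK2 was 2.97-fold higher in 2D (log2 fold change -1.57, SE 0.118, adjusted p = 1.52e-06).

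HK1 (ENSG00000156515, chr10:69269984-69401884, plus strand), the housekeeping form, was scarce. It measured 8.11, 11.3, 13.2 and 12.7 CPM in 2D and 2.00, 1.77, 2.87 and 0.993 CPM in 3D. No 3D library reached the 2D range, and HK1 was 5.89-fold higher in 2D (log2 fold change -2.56, SE 0.264, adjusted p = 1.31e-05). Its neighbour on the same strand, HKDC1 (chr10:69220332-69267552), measured 24.0, 22.1, 22.6 and 23.1 CPM in 2D and 21.8, 19.5, 18.6 and 20.1 CPM in 3D. The HKDC1 groups lay next to each other without overlap and the fall was small (log2 fold change -0.20, SE 0.058, adjusted p = 0.0119). HK2 led the family per kilobase in both groups, with 93.6% in 2D and 88.4% in 3D.

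In upper glycolysis, 7 of 11 members fell, 2 rose and 2 were not called, against 31.6% of all genes that fell and 32.4% that rose. GPI (glucose phosphate isomerase, ENSG00000105220, chr19:34359480-34402413, plus strand) measured 647, 700, 713 and 674 CPM in 2D and 275, 270, 301 and 232 CPM in 3D. The groups were well apart, with a 2.53-fold higher level in 2D (log2 fold change -1.34, SE 0.072, adjusted p = 1.77e-07).

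Phosphofructokinase, which commits sugar to glycolysis, has 3 subunit genes that changed in different directions. PFKP (platelet type, ENSG00000067057, chr10:3066333-3137718, plus strand) measured 7.06, 8.82, 8.18 and 6.58 CPM in 2D and 0.377, 0.664, 0.932 and 0.635 CPM in 3D. All 3D libraries were below 1 CPM, and PFKP was 11.6-fold higher in 2D (log2 fold change -3.54, SE 0.224, adjusted p = 4.84e-07), on 10 to 204 counts per library. PFKL, the liver type, measured 264, 274, 263 and 274 CPM in 2D and 195, 170, 178 and 157 CPM in 3D. PFKL fell without overlap (log2 fold change -0.62, SE 0.060, adjusted p = 8.75e-06) and held 96.2% of the family per kilobase in 2D and 97.7% in 3D. PFKM, the muscle type, measured 2.43, 2.25, 1.75 and 2.74 CPM in 2D and 3.92, 3.67, 3.33 and 3.30 CPM in 3D. PFKM rose from that low level (log2 fold change 0.63, SE 0.155, adjusted p = 0.00463).

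The PFKFB enzymes make and remove the sugar bisphosphate that activates phosphofructokinase. PFKFB3, the form with the highest kinase activity, fell from 150 to 221 CPM in 2D to 15.7 to 44.4 CPM in 3D (log2 fold change -2.87, SE 0.269, adjusted p = 6.56e-06). PFKFB4 fell from 111 to 144 CPM to 37.2 to 80.1 CPM (log2 fold change -1.15, adjusted p = 0.000306). PFKFB1, the liver form, rose from 1.08 to 1.63 CPM to 2.21 to 3.51 CPM (log2 fold change 0.92, adjusted p = 0.00326), and PFKFB2 was not called at 13.7 to 15.1 CPM and 13.6 to 15.3 CPM. Per kilobase PFKFB3 led the family in 2D with 52.2% ± 2.04 and had 22.3% ± 3.65 in 3D (SD, n = 4), where PFKFB4 led with 64.1%.

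Aldolase cleaves the resulting sugar bisphosphate. ALDOA, the muscle and tumour form, measured 3612, 4002, 4118 and 3840 CPM in 2D and 1727, 1660, 1921 and 1365 CPM in 3D. It was 2.33-fold higher in 2D without overlap (log2 fold change -1.22, SE 0.091, adjusted p = 1.36e-06). ALDOC, the brain form, measured 85.5, 80.2, 76.6 and 78.4 CPM in 2D and 84.2, 71.9, 85.5 and 54.9 CPM in 3D. The ALDOC groups overlapped and it was not called. TPI1, triose phosphate isomerase, fell from 845 to 943 CPM to 470 to 597 CPM (log2 fold change -0.68, adjusted p = 1.78e-05).

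All 8 members of lower glycolysis fell, against 31.6% of all genes. Of these 8, 5 fell at least 2-fold, against 7.01% of all genes, and the median log2 fold change was -1.16. GAPDH, the triose phosphate dehydrogenase often taken as a reference transcript (ENSG00000111640, chr12:6534512-6538374, plus strand), measured 5549, 6018, 6135 and 5809 CPM in 2D and 2677, 2598, 2900 and 2254 CPM in 3D. All 3D libraries were far below all 2D libraries, and GAPDH was 2.25-fold higher in 2D (log2 fold change -1.17, SE 0.070, adjusted p = 3.15e-07). With any single library left out its log2 fold change stayed between -1.23 and -1.11.

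PGK1, which makes the first ATP of the path, fell from 1626 to 1824 CPM to 456 to 734 CPM (log2 fold change -1.46, SE 0.123, adjusted p = 3.28e-06). PGAM1, the mutase that follows it, fell less, from 472 to 505 CPM to 292 to 353 CPM (log2 fold change -0.55, adjusted p = 1.41e-05).

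The 3 enolases all fell, the neuronal form most in log2 fold change. ENO1, the ubiquitous form, measured 6168, 6621, 7091 and 6581 CPM in 2D and 3076, 2986, 3555 and 2272 CPM in 3D. It was 2.23-fold higher in 2D (log2 fold change -1.15, SE 0.112, adjusted p = 8.43e-06). ENO2 (ENSG00000111674, chr12:6913745-6923698, plus strand) measured 158, 184, 216 and 189 CPM in 2D and 34.6, 39.5, 55.4 and 30.8 CPM in 3D. ENO2 was 4.66-fold higher in 2D without overlap (log2 fold change -2.22, SE 0.166, adjusted p = 1.42e-06). ENO3, the muscle form, measured 14.9, 14.8, 14.8 and 17.1 CPM in 2D and 9.81, 9.92, 9.71 and 10.4 CPM in 3D. ENO3 fell by 0.63 on the log2 scale (SE 0.064, adjusted p = 1.18e-05), with all 3D libraries below all 2D libraries.

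Pyruvate kinase closes the path. PKM (ENSG00000067225, chr15:72199029-72231819, minus strand), whose splice forms cannot be told apart in gene counts, measured 1725, 1836, 1959 and 1819 CPM in 2D and 814, 790, 876 and 663 CPM in 3D. It was 2.33-fold higher in 2D without overlap (log2 fold change -1.22, SE 0.078, adjusted p = 5.25e-07). PKLR, the liver and red cell gene, measured 11.7, 11.7, 9.60 and 12.3 CPM in 2D and 9.58, 8.41, 8.24 and 10.4 CPM in 3D. The PKLR groups overlapped, and its small fall (log2 fold change -0.30, SE 0.101, adjusted p = 0.0223) lost the call on leaving out 2D-primed replicate 1, 2 or 4 or 3D-primed replicate 2 or 3 (adjusted p = 0.0512 to 0.0643 in edgeR). PKM held 99.5% of pyruvate kinase per kilobase in 2D and 99.1% in 3D.

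**Figure D2:**
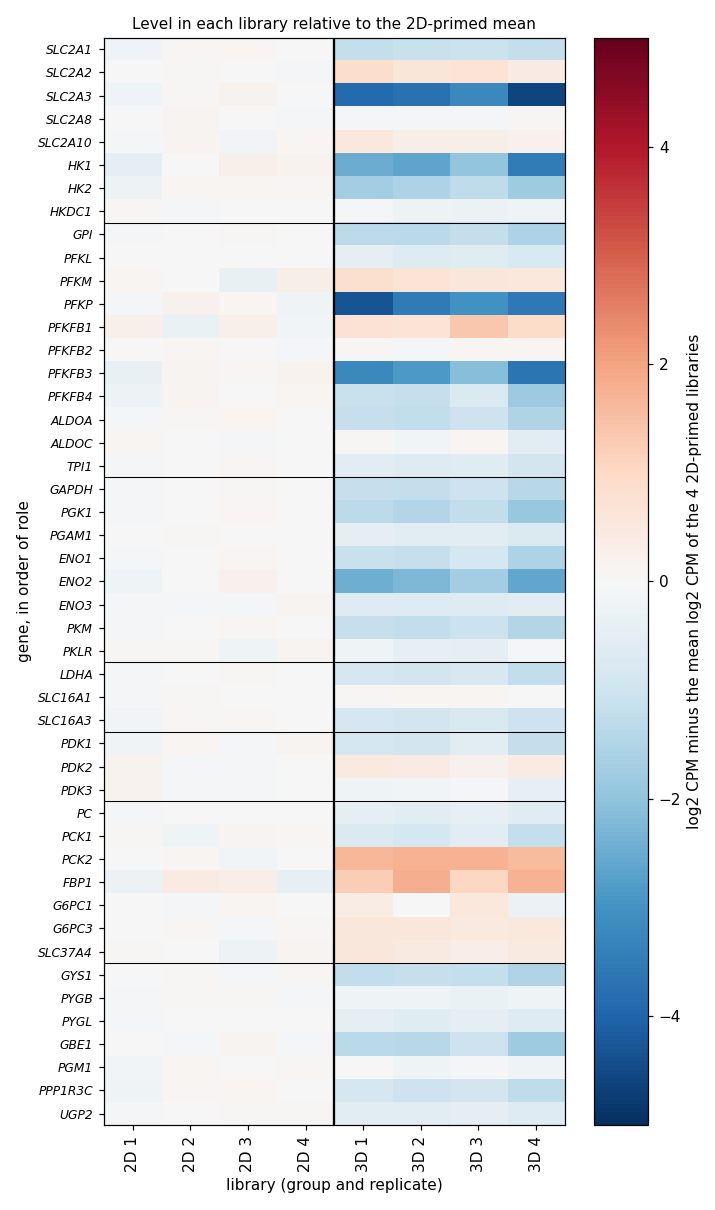
CPM of members in each of the 8 libraries, shown as log2 CPM minus the mean log2 CPM of the 4 2D-primed libraries, with red for higher, blue for lower and a colour scale from -5 to 5. The 3D columns are blue for most of the glycolytic enzymes, and PCK2 is red in all 4.

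Of the lactate genes, LDHA and SLC16A3 fell, SLC16A1 was not called and LDHB was too scarce to test. LDHA (ENSG00000134333, chr11:18394560-18408425, plus strand), which reduces pyruvate to lactate, measured 3010, 3074, 3218 and 3085 CPM in 2D and 1734, 1624, 1754 and 1316 CPM in 3D. The groups did not overlap, and LDHA was 1.93-fold higher in 2D (log2 fold change -0.95, SE 0.080, adjusted p = 3.42e-06). LDHB, the form that favours lactate oxidation, had counts of 4, 0, 0 and 0 in 2D and 0, 1, 0 and 1 in 3D, so LDHA was essentially the whole of lactate dehydrogenase transcript in both groups.

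SLC16A3 (MCT4, ENSG00000141526, chr17:82217934-82261129, plus strand), the lactate exporter of glycolytic cells, measured 780, 888, 892 and 879 CPM in 2D and 481, 458, 511 and 415 CPM in 3D. It was 1.84-fold higher in 2D without overlap (log2 fold change -0.88, SE 0.068, adjusted p = 1.72e-06). SLC16A1 (MCT1), the more widespread carrier that also takes lactate up, measured 211, 224, 218 and 219 CPM in 2D and 229, 231, 236 and 214 CPM in 3D. Its groups overlapped and it was not called (log2 fold change 0.06, adjusted p = 0.21), although it passed with upper-quartile scaling (0.11, adjusted p = 0.0308 in edgeR). SLC16A3 led per kilobase in both groups, with 85.04% in 2D and 74.7% in 3D. BSG, the chaperone of both carriers, fell from 1130 to 1350 CPM to 787 to 1108 CPM (log2 fold change -0.42, adjusted p = 0.00269).

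The pyruvate dehydrogenase kinases, which hold back the oxidation of pyruvate by inactivating pyruvate dehydrogenase in the mitochondrion, did not move together. PDK1 measured 83.4, 99.6, 90.3 and 104 CPM in 2D and 51.5, 50.2, 63.9 and 41.5 CPM in 3D. PDK1 fell without overlap, 1.82-fold higher in 2D (log2 fold change -0.86, SE 0.117, adjusted p = 9.12e-05). PDK2 measured 21.4, 18.1, 17.7 and 19.5 CPM in 2D and 26.8, 25.1, 21.9 and 25.7 CPM in 3D. PDK2 rose 1.30-fold, its lowest 3D library just above its highest 2D library (log2 fold change 0.38, SE 0.078, adjusted p = 0.0017). PDK3 lay at 15.3 to 18.3 CPM in 2D and 12.3 to 15.2 CPM in 3D (log2 fold change -0.22, adjusted p = 0.0396), a call lost in 8 of the 17 alternative settings. PDK4, the form induced by fasting, had 3 to 8 counts per library and was not tested.

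Another 10 genes covered pyruvate entry into the mitochondrion and pyruvate dehydrogenase with its control. Of these, 7 rose, 2 fell and 1 was not called, against 32.4% and 31.6% of all genes that rose and fell. MPC1, a subunit of the mitochondrial pyruvate carrier, rose from 27.3 to 34.6 CPM in 2D to 84.1 to 99.6 CPM in 3D (log2 fold change 1.49, SE 0.080, adjusted p = 1.79e-07). Its partner MPC2 rose from 29.9 to 33.0 CPM to 47.5 to 58.0 CPM (log2 fold change 0.72, adjusted p = 4.13e-06). DLD, the third component of pyruvate dehydrogenase, rose from 52.3 to 53.9 CPM to 75.9 to 83.7 CPM (log2 fold change 0.60, adjusted p = 7.25e-07).

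Gluconeogenesis was the only one of the 7 role groups with a positive median log2 fold change, 0.45, with 4 of 7 members higher, 2 lower and 1 not called, against 32.4% of all genes higher and 31.6% lower. Without FBP1, which passed the filter only through 3D-primed libraries, 3 of 6 were higher and the median was 0.32. PCK2 (ENSG00000100889, chr14:24094053-24110598, plus strand), the mitochondrial phosphoenolpyruvate carboxykinase, had the smallest p of the members. PCK2 measured 107, 117, 99.1 and 111 CPM in 2D and 345, 357, 359 and 327 CPM in 3D. The libraries of each group lay close together and far from the other group, a 3.20-fold rise (log2 fold change 1.68, SE 0.056, adjusted p = 1.64e-08).

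PCK1, the cytosolic form and a classical target of glucagon and glucocorticoids, went the other way. It measured 245, 203, 259 and 245 CPM in 2D and 142, 130, 166 and 103 CPM in 3D. The groups did not overlap and PCK1 was 1.76-fold higher in 2D (log2 fold change -0.81, SE 0.129, adjusted p = 0.000282). Per kilobase PCK1 held 52.5% ± 4.26 of the pair in 2D and 16.4% ± 2.25 in 3D (SD, n = 4). PC, pyruvate carboxylase, fell from 119 to 126 CPM to 80.4 to 92.0 CPM (log2 fold change -0.50, adjusted p = 8.33e-06).

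FBP1, the bisphosphatase of the gluconeogenic path, was close to the detection limit, with 4 to 19 counts per library (0.169 to 0.303 CPM in 2D and 0.466 to 0.797 CPM in 3D). It passed the filter only through the 3D-primed libraries, so its call (log2 fold change 1.41, SE 0.342, adjusted p = 0.00437) rests on few reads. FBP2 had at most 0.0432 CPM in any library.

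The release of free glucose depends on glucose-6-phosphatase and its carrier in the endoplasmic reticulum. G6PC1, the liver catalytic subunit, measured 110, 101, 115 and 109 CPM in 2D and 142, 109, 158 and 89.0 CPM in 3D. The 3D libraries spanned the 2D range and G6PC1 was not called (log2 fold change 0.20, adjusted p = 0.272). It passed without 3D-primed replicate 4 (log2 fold change 0.33, adjusted p = 0.0236 in edgeR). G6PC3, the ubiquitous subunit (ENSG00000141349, chr17:44070620-44082151, plus strand), measured 35.0, 35.6, 32.4 and 35.7 CPM in 2D and 51.3, 51.2, 48.7 and 50.5 CPM in 3D. G6PC3 rose 1.45-fold with tight groups (log2 fold change 0.54, SE 0.042, adjusted p = 1.92e-06). SLC37A4, the carrier of the phosphorylated sugar, rose by 0.45 on the log2 scale (adjusted p = 0.000632), from 20.1 to 26.2 CPM to 30.3 to 35.3 CPM.

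In glycogen metabolism, 7 of 8 members tested fell and none rose, against 31.6% of all genes that fell and 32.4% that rose. The 7 included PPP1R3B, which passed the filter only through 2D-primed libraries, and DESeq2, limma-voom and the stricter filters gave 6, among them enzymes of synthesis (GYS1, GBE1, UGP2) and of breakdown (PYGL, PYGB). GYS1 (muscle-type glycogen synthase, ENSG00000104812, chr19:48968130-48993310, minus strand) measured 53.6, 56.5, 51.2 and 56.2 CPM in 2D and 23.1, 24.3, 24.0 and 19.3 CPM in 3D. The groups were wide apart, 2.40-fold higher in 2D (log2 fold change -1.26, SE 0.071, adjusted p = 2.26e-07). GYS2, the liver synthase, had 2 counts in 2D-primed replicate 2 and 0 in each of the other libraries, so the liver form was at or below the detection limit in both groups.

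GBE1, the branching enzyme, fell from 114 to 129 CPM to 34.7 to 58.1 CPM (log2 fold change -1.36, SE 0.124, adjusted p = 5.63e-06). UGP2, which makes the sugar nucleotide used by the synthase, fell from 151 to 172 CPM to 105 to 118 CPM (log2 fold change -0.56, adjusted p = 5.6e-06). PGM1, phosphoglucomutase, was not called, at 191 to 220 CPM in 2D and 179 to 212 CPM in 3D (log2 fold change -0.12, adjusted p = 0.13), and it passed without 3D-primed replicate 1 (-0.17, adjusted p = 0.0235 in edgeR).

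PYGL, the liver glycogen phosphorylase, measured 206, 214, 214 and 216 CPM in 2D and 151, 140, 150 and 135 CPM in 3D. PYGL fell without overlap (log2 fold change -0.56, SE 0.044, adjusted p = 2.02e-06). PYGB, the brain form, measured 126, 138, 137 and 124 CPM in 2D and 114, 112, 106 and 113 CPM in 3D. PYGB fell less (log2 fold change -0.24, SE 0.047, adjusted p = 0.00115), and PYGL led the pair per kilobase with 70.4% in 2D and 65.5% in 3D.

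The glycogen-targeting subunits bring protein phosphatase to the particle. PPP1R3C fell from 24.7 to 30.7 CPM to 11.8 to 15.9 CPM (log2 fold change -1.02, SE 0.100, adjusted p = 8.93e-06). PPP1R3B, the liver subunit, had 0, 21, 32 and 0 counts in 2D and 0 counts in all 4 3D-primed libraries. It passed the filter through those 2 libraries only, and its call (adjusted p = 0.0337 in edgeR) was not made by DESeq2 (0.0985) or limma-voom (0.12) or without 3D-primed replicate 1, 2 or 4 (0.0503 to 0.0548 in edgeR), so no fold change is given. Without 2D-primed replicate 2 or 3 PPP1R3B did not pass the filter at all.

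Among 21 other glycogen genes tested, 6 rose, 8 fell and 7 were not called, close to the shares over all genes. GYG2, the liver glycogenin that primes the particle, rose from 6.35 to 9.39 CPM in 2D to 31.1 to 34.7 CPM in 3D (log2 fold change 1.97, SE 0.106, adjusted p = 1.76e-07). STBD1, which tethers glycogen to membranes, fell from 33.6 to 41.7 CPM to 12.1 to 16.3 CPM (log2 fold change -1.45, adjusted p = 7.99e-07).

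Isozyme choice was tested as the log2 ratio of the counts of 2 genes in the same library, which does not depend on scaling between libraries. Of 16 pairs listed, 14 could be tested, and LDHB and GYS2 were too scarce for the other 2. The two-sided exact permutation test over libraries cannot go below p = 0.0286 with 4 libraries against 4. In 13 of the 14 pairs all 4 3D-primed libraries lay outside the 2D-primed range, which gave this smallest p (0.0308 after Benjamini-Hochberg adjustment over the 14 pairs, exact permutation test). Among single genes tested, 59.8% did not overlap between the groups. The share for pairs of other genes was not computed, so the count of 13 has no background to set it against. The ratio moved toward the first-named gene in 8 pairs and toward the second in 5.

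Where a form named above as typical of hepatocytes was set against another form, the direction differed by step. The pairs with PFKL, the liver type of phosphofructokinase, are given with the other pairs. The log2 ratio of SLC2A2 to SLC2A1 was -6.14 ± 0.126 in 2D and -4.34 ± 0.208 in 3D (SD, n = 4), a 3.48-fold shift toward SLC2A2. The log2 ratio of PKLR to PKM was -7.34 in 2D and -6.42 in 3D, a shift of 0.92 toward PKLR in which both genes fell and PKM fell more. The log2 ratio of PCK1 to PCK2 went from 1.13 ± 0.247 in 2D to -1.38 ± 0.239 in 3D (SD, n = 4), a shift of 5.69-fold away from PCK1 in which the gene with more counts changed. The log2 ratio of PYGL to PYGB fell by 0.32, from 0.70 in 2D to 0.37 in 3D. The log2 ratio of G6PC1 to G6PC3 overlapped between groups, at 1.4997 to 1.82 in 2D and 0.82 to 1.69 in 3D (difference -0.38, p = 0.171, exact permutation test).

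The other pairs moved in both directions. The log2 ratio of SLC2A3 to SLC2A1 was 0.52 ± 0.0488 in 2D and -2.18 ± 0.513 in 3D (SD, n = 4), a 6.499-fold shift away from SLC2A3. The ratio of PFKP to PFKL shifted by -2.95 on the log2 scale and that of ENO2 to ENO1 by -1.08. The ratio of PFKM to PFKL shifted by 1.27 toward PFKM, from -6.88 to -5.61. The ratios of HK2 and of HKDC1 to HK1 shifted by 1.05 and 2.43 away from HK1. ALDOC gained on ALDOA by 1.10, and ENO3 on ENO1 by 0.54. SLC16A1 gained on SLC16A3 by 0.95, from -1.98 ± 0.0624 to -1.03 ± 0.0728 (SD, n = 4).

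**Figure D3:**
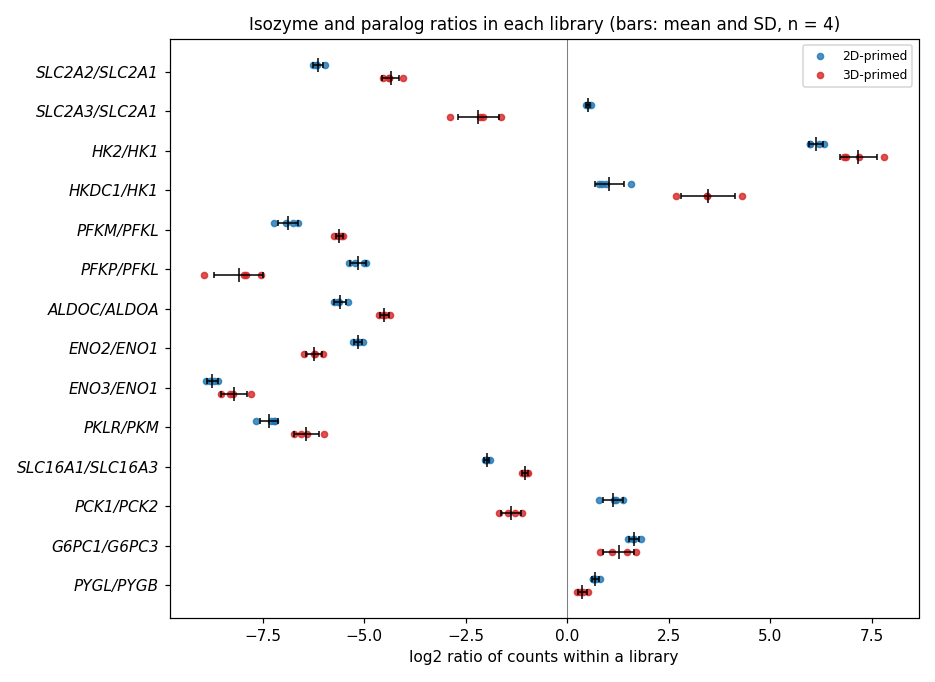
Log2 count ratio of the 14 isozyme pairs in each library (blue 2D-primed, red 3D-primed), with bars for the mean and SD of each group of 4. The groups are separate in every pair but G6PC1 to G6PC3, and the largest shift is PFKP to PFKL, by -2.95.

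**Figure D4:**
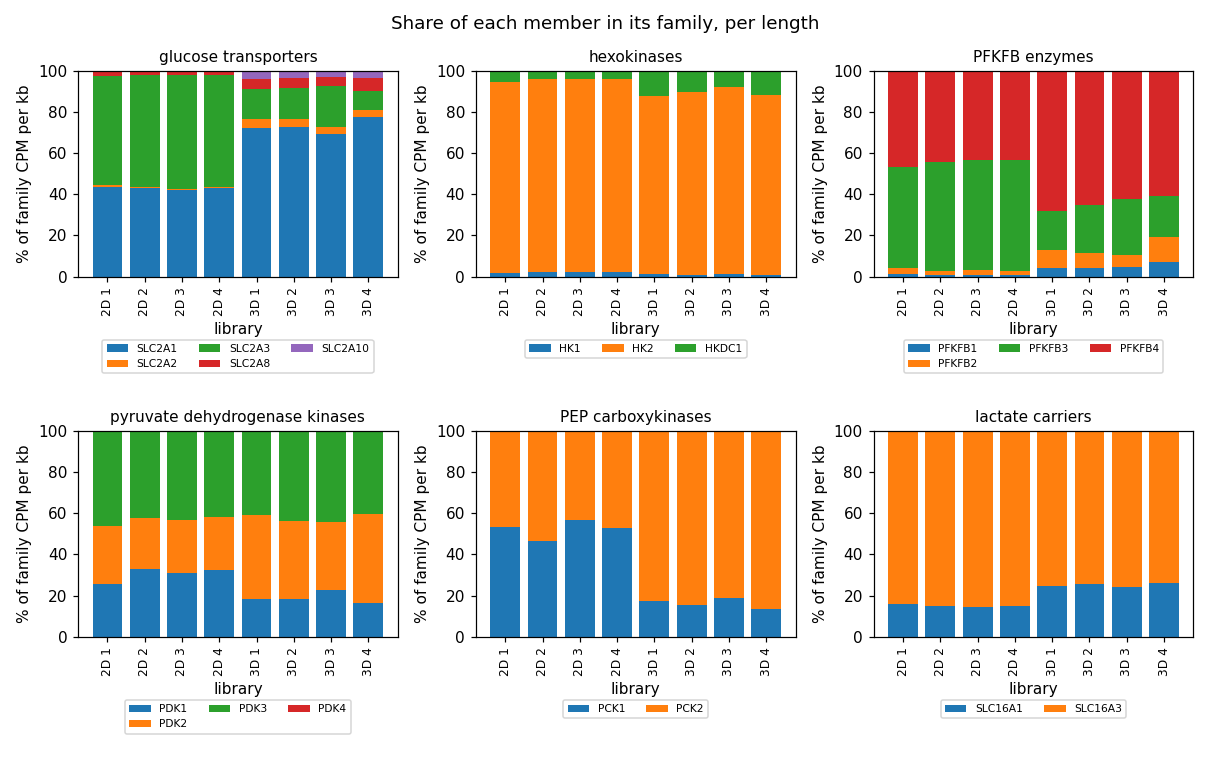
Share of each gene in the summed CPM per kilobase of its family (percent) in each of the 8 libraries, for 6 families. SLC2A3, PFKFB3 and PCK1 take a smaller share in every 3D-primed library, and SLC2A1, PFKFB4 and PCK2 a larger one.

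Per kilobase, HK2, PFKL, ALDOA, ENO1, PKM, LDHA, SLC16A3, GYS1 and PYGL led their families in both groups. The leader by mean CPM per kilobase differed between the groups in the glucose carriers, the PFKFB enzymes, the carboxykinases and the glucose-6-phosphatases. PCK1 and PCK2 lay close together in 2D. Shares within the glucose-6-phosphatase pair, 54.2% ± 2.31 for G6PC1 in 2D and 47.7% ± 6.69 in 3D (SD, n = 4), overlapped in spread. With the length of all exons in place of that of 1 transcript, the leading gene was the same in 25 of 28 cases, and the 3 others were the pyruvate dehydrogenase kinases in both groups and the glucose-6-phosphatases in 3D.

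Genes controlled by the hypoxia-inducible factors outside glycolysis fell alongside. Of 20 such genes, 19 fell and none rose, against 31.6% of all genes that fell, with a median log2 fold change of -1.36 and a summed level of 7525 to 8970 CPM in 2D and 2117 to 3710 CPM in 3D. CA9, a carbonic anhydrase widely used as a marker of hypoxia, fell from 239 to 284 CPM to 10.1 to 25.3 CPM (log2 fold change -3.90, SE 0.218, adjusted p = 2.22e-07). VEGFA, the vascular growth factor, fell from 569 to 647 CPM to 158 to 222 CPM (log2 fold change -1.79, adjusted p = 3.09e-07). EPO was not called, at 10.4 to 13.9 CPM and 10.6 to 16.2 CPM. The transcripts of the factors themselves changed little in comparison, HIF1A by -0.20 (adjusted p = 0.00176) and EPAS1 by -0.47 (adjusted p = 0.00015) on the log2 scale. This list, like the others, was chosen with earlier results of these data known. The part of these genes in the members' change was not tested.

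Regulators known for carbohydrate genes moved in both directions, with 5 of 20 higher and 10 lower, against 32.4% and 31.6% of all genes. MLXIPL (ChREBP), the carbohydrate response factor of liver, rose from 39.3 to 56.3 CPM to 89.1 to 114.5 CPM (log2 fold change 0.97, adjusted p = 3.1e-05), while its relative MLXIP fell (-0.79, adjusted p = 1.39e-07). SREBF1, the lipogenic factor, rose (log2 fold change 0.82, adjusted p = 2.68e-07). TXNIP, a brake on glucose uptake and a known target of MLXIPL, fell from 18.4 to 32.7 CPM to 5.44 to 6.90 CPM (log2 fold change -1.89, adjusted p = 6.73e-06). MYC was not called (log2 fold change 0.02, adjusted p = 0.737).

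Other genes of sugar entry moved in both directions. Of 14 other sugar transport and glycolysis genes tested, 6 rose and 3 fell, not far from the 32.4% and 31.6% of all genes. SLC2A9, a urate and hexose carrier of liver and kidney, rose from 15.2 to 18.3 CPM to 40.6 to 42.9 CPM (log2 fold change 1.26, SE 0.060, adjusted p = 9.54e-08). SLC2A6 rose from 3.78 to 5.32 CPM to 13.3 to 18.1 CPM (log2 fold change 1.77, adjusted p = 1.27e-06). Of 11 genes of fructose, galactose and mannose entry, 6 rose and 2 fell, among them SORD, sorbitol dehydrogenase (log2 fold change 0.96, adjusted p = 1.89e-06), and KHK, ketohexokinase (log2 fold change 0.63, adjusted p = 4.66e-06), both higher. Of 10 other gluconeogenesis and shuttle genes tested, 5 rose and 1 fell. No difference between these lists and the members was tested.

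The promoters were searched for the core of the hypoxia response element, ACGTG or GCGTG on either strand, in the 250 bases before the RefSeq start of each gene (GRCh38.p14). A window was found for 43 of the 48 members tested. Where RefSeq lists several starts, the one nearest to the start of the representative transcript was used. It lay furthest from that start in PFKM (3283 bases) and PGAM1 (1627 bases). Of the 30 members that fell and had a window, 22 (73.3%) held at least 1 match, against 58.3% of the 10206 tested genes with a window, and of the 9 that rose 5 (55.6%) did. For ACGTG alone the shares were 50.0% (15 of 30), 23.4% and 33.3% (3 of 9). CACGTG, the E-box that holds ACGTG on both strands and is also read by MYC and other factors, was in 16.7% (5 of 30), 9.0% and 22.2% (2 of 9). A match is a stretch of letters and not a binding site.

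The windows of 3 members that fell and 2 that rose are shown to let their matches be compared, on the strand of the gene, with matches to ACGTG or GCGTG on either strand in capitals and overlapping matches joined. They are LDHA (chr11:18394313-18394562, plus strand), PGK1 (chrX:78103998-78104247, plus strand), ENO1 (chr1:8878687-8878936, minus strand), G6PC3 (chr17:44070485-44070734, plus strand) and PCK2 (chr14:24094061-24094310, plus strand).
LDHA: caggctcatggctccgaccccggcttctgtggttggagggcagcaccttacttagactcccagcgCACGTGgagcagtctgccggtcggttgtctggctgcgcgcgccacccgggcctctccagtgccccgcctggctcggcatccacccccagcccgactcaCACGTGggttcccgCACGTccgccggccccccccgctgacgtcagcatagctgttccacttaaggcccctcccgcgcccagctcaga
PGK1: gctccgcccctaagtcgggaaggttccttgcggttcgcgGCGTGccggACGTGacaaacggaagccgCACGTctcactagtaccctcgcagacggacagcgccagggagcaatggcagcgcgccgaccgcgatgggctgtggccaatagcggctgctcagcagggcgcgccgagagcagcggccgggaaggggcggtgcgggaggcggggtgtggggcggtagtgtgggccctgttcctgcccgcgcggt
ENO1: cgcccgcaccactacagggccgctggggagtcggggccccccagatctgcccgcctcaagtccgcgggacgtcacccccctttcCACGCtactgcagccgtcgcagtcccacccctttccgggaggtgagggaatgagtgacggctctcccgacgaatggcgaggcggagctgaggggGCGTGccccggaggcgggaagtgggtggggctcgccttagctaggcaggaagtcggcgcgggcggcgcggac
G6PC3: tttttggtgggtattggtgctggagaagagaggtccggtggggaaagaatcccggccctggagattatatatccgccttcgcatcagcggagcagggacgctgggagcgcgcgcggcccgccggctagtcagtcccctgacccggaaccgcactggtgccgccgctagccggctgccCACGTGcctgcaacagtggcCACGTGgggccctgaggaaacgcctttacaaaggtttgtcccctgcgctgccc
PCK2: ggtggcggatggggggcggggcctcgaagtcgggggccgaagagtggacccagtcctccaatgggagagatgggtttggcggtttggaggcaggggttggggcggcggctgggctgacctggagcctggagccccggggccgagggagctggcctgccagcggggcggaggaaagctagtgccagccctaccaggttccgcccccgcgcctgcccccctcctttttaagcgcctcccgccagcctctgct

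LDHA and PGK1 each had 3 separate stretches in capitals and ENO1 had 2. G6PC3, which rose, had 2, both of them the full E-box, as were 2 of those in LDHA. PCK2, the member with the smallest p, had none. ENO3, HKDC1, PFKP, PGAM1, PKM, PYGL, SLC2A1 and TPI1 fell and had none either, and none of these is shown. Matches were therefore present and absent among members of both directions.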

How the data were processed

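RNA of 8 HepG2 libraries (4 2D-primed, 4 3D-primed) had been sequenced from directional poly(A) libraries. The authors deposited estimated counts per gene, made with Salmon on GRCh38 per the labels and summed from transcripts to genes; the count-scaling option is not given in the sources used here. Groups and replicate numbers came from the labels. Counts were read as whole numbers, with any decimals dropped, and genes with 10 or more counts in 2 or more libraries were kept. TMM scaling and the quasi-likelihood test of edgeR 4.0.16 (R 4.3.3) were run over 13943 genes, with Benjamini-Hochberg adjustment over all of them and a threshold of 0.05; the study used DESeq2, which is an alternative here. Symbols were matched to GENCODE release 44 by identifier (92.0% of 38032). Ratios of isozymes used log2 counts plus 0.5 and an exact permutation test. Levels of different genes were compared per kilobase of 1 representative transcript.

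The members and lists were chosen with earlier results of these data known. Per-library values are given for the genes of the isozyme pairs and, in each role group, for the 2 members with the smallest p and the 1 with the largest log2 fold change; other genes of the lists are examples. Paralog and pseudogene copies were looked up after values were seen. The fit was tested on simulated data. Alternatives were DESeq2 1.42.0, limma-voom (limma 3.58.1), 3 other scalings, 3 other filters, each library left out, and replicate number as a block. Within groups, library pairs differed by 6.34 to 17.4 chi-square per degree of freedom, so no library was a duplicate. Intervals of detection cover counting error only. Figures were drawn with matplotlib 3.10.9, and exact tests were run with scipy 1.17.1.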

Additional observations from a re-analysis of the deposited data

Results flagged for a closer look

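In 4 of the 96 groups of 4 libraries checked (48 members in both groups), 1 library stood apart from the other 3 by more than Dixon's critical value at 95% for the gap over the range. Chance flags about 1 group in 20. HK2 measured 655 CPM in 2D-primed replicate 1 and 805 to 831 CPM in the other 2D-primed libraries. SLC16A3 measured 780 CPM in the same library and 879 to 892 CPM in the others. ENO3 measured 17.1 CPM in 2D-primed replicate 4, against 14.8 to 14.9 CPM. GBE1 measured 129 CPM in 2D-primed replicate 3, against 114 to 116 CPM. All 4 genes kept every 3D-primed library outside the range of the 2D-primed libraries, these included.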

How the results depend on the processing

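Over 17 alternative settings, 40 to 42 of the members were called, 31 to 33 lower and 8 to 10 higher, and 8357 to 9070 of all genes were called. DESeq2 called 8413 genes. The number of pyruvate dehydrogenase kinases that fell was 2, and it was 1 with upper-quartile scaling, total counts, no filter and the replicate block, and 1 to 2 with single libraries left out, since PDK3 had an adjusted p of 0.059 to 0.116 where its call was lost. Uncalled members changed sign in 3 cases: SLC2A8 had a log2 fold change of 0.0149 with upper-quartile scaling and 0.0073 without 2D-primed replicate 2 (lowest -0.0737, without 3D-primed replicate 4), and ALDOC 0.0087 without 3D-primed replicate 4 (lowest -0.195, without 3D-primed replicate 3). The cause was not tested. The median log2 fold change of all genes lay between -0.0359 and 0.0638 over the settings. FBP1 and PPP1R3B could not be fitted with 10 counts required in all 8 libraries. PPP1R3B also dropped out with edgeR's own expression filter and without 2D-primed replicate 2 or 3. Replicate numbers did not pair the libraries: deviations of libraries with the same number correlated at -0.0433 to 0.0574, and 0 of 4 3D-primed libraries correlated best with its own number. With the replicate block 41 members and 8490 genes were called. Of the 14 isozyme ratios, 13 passed with a pseudocount of 5. With a library left out the exact test cannot reach 0.05. Low counts limit the precision of FBP1, which had 4 to 19 counts per library, and of PPP1R3B, which had 0 in 6 of the 8.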
